A study of Homo sapiens with 4 samples.

Results

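HT-29 cells treated with sturgeon chondroitin sulfate (SCS) were compared with untreated HT-29 cells across all genes, with 1 RNA-seq library on each side. HT-29 is an established epithelial cell line from a human colorectal adenocarcinoma. Members were chosen by being measured in these cells: 12168 of the 18650 gene loci with a fragment in any library had a mean of at least 1 CPM (fragments per 1000000 after scaling) over both HT-29 libraries and were compared. The series holds 4 libraries, of which 2 are HT-29 cells and the others are NCM460, a colonic epithelial line. The control group was HT-29 without SCS, and the treated group was HT-29 given SCS at 100 μg/mL for 24 h. Both cultures received fetal bovine serum at 10% and penicillin-streptomycin at 1%, were kept at 37 °C in 5% CO2, and neither carried any labelled genetic change. The comparison asked how SCS alters the transcripts of a colorectal cancer line.

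Chondroitin sulfate is a sulfated glycosaminoglycan of cartilage, a chain of repeating disaccharides that is carried on proteoglycan core proteins. Cells that divide license replication origins by loading the MCM helicase in G1, copy DNA with polymerases held by the PCNA clamp, and then segregate chromosomes under mitotic kinases, and the E2F and DREAM complexes switch most of these genes on and off together. Epithelial cells also adjust lipid synthesis through the SREBP factors, protein folding in the endoplasmic reticulum (ER) through the sensors IRE1, PERK and ATF6, amino acid supply through ATF4, and oxidant defence through NRF2.

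Fragments were counted per locus, and neighbouring genes that the deposited table gave the same values were treated as 1 locus. The control library held 1654764 fragments and the SCS library 1605372. After scaling by trimmed mean of M-values (TMM) the SCS library counted as 1.174 times the control, so a transcript at an equal level gave slightly more fragments with SCS. Changes are log2 fold changes of SCS over control with a prior count of 2, and each interval is an exact 95% Clopper-Pearson interval. The intervals, and values named as a log2 ratio, leave out the prior count. Calls of higher or lower needed a change over 1.5-fold with an interval that left out 0. There was no replicate on either side, so no test between conditions could be made and the intervals cover counting error only. In a bulk sample, fewer cells of a type and less RNA per cell cannot be told apart.

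Of the 12168 loci, 2040 (16.8%) were called higher and 1799 (14.8%) were called lower with SCS, and the median over all compared loci was 0.07. The split depended on the scale: dividing by total fragments gave 3148 higher and 1116 lower, dividing by nuclear fragments gave 1509 and 2311, and the deposited FPKM values, called by fold alone, gave 2118 and 3100. TMM factors of the HT-29 pair alone gave 1762 and 2004, and subtracting a trend on transcript GC content gave 1779 and 1917. Transcripts of DNA replication, mitosis and chromatin inheritance were lower. Transcripts of cholesterol synthesis, ER folding, the ATF4 response, NRF2 targets and autophagy were higher, and ribosomal protein transcripts were almost all uncalled.

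**Figure D1:**
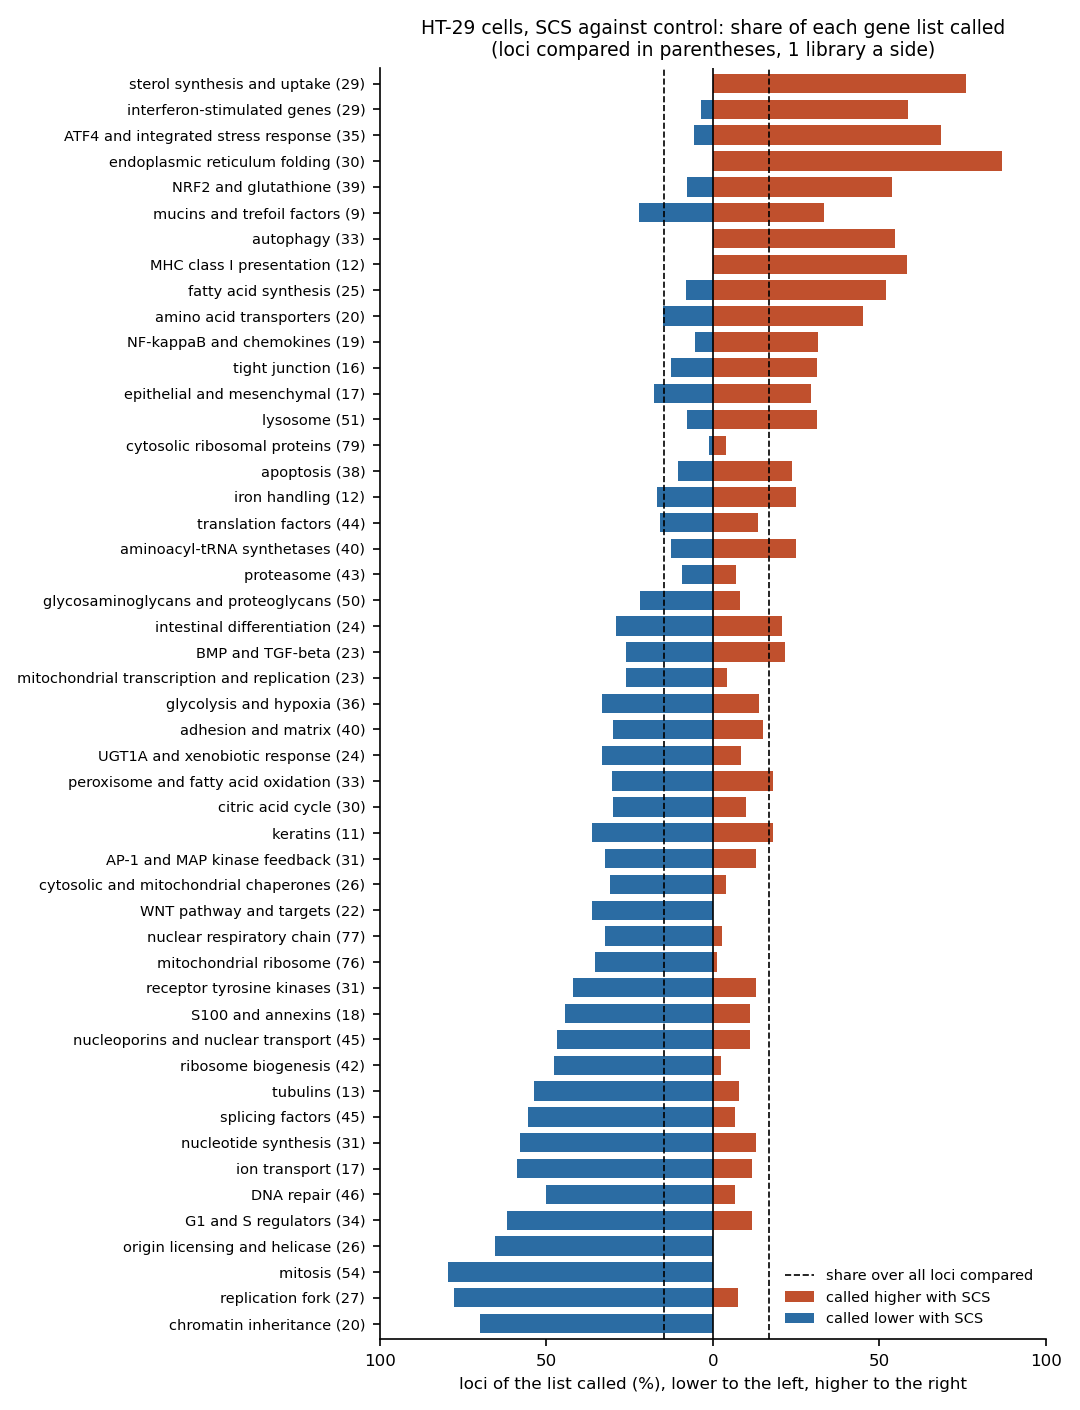
Share of the compared loci of each gene list that was called higher (to the right) or lower (to the left) in HT-29 cells with SCS, in percent, with the shares over all 12168 compared loci for reference. No mitosis locus was called higher and 43 of 54 were called lower, while 26 of 30 ER folding loci were called higher and none lower.

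**Figure D2:**
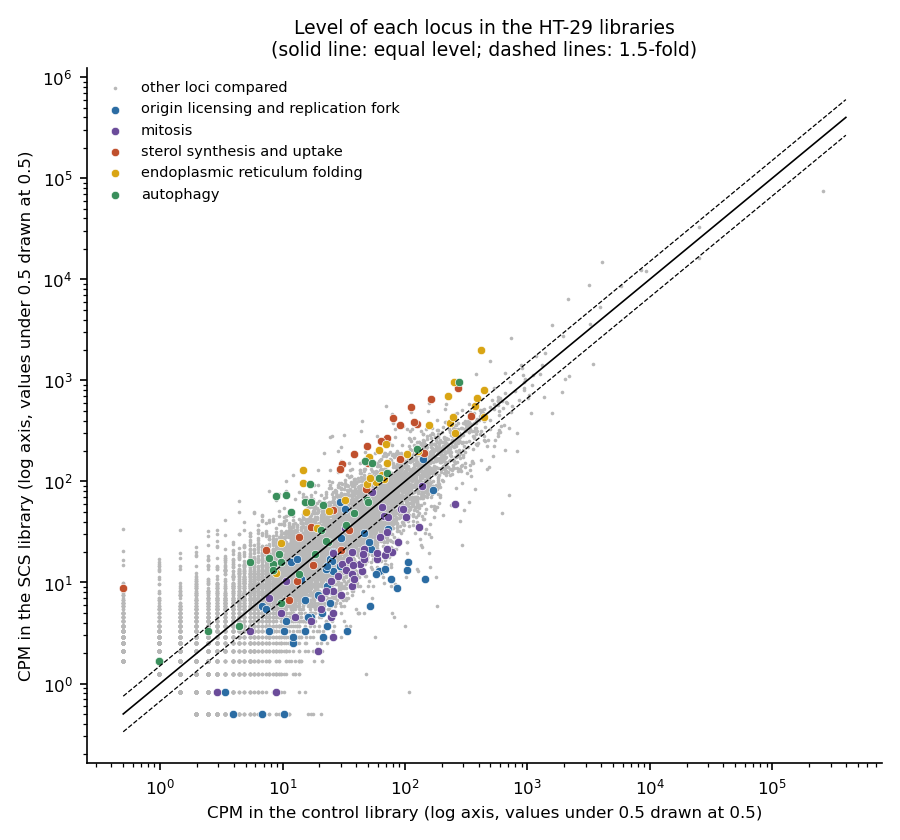
Level of each compared locus in the control library (x axis) and the SCS library (y axis), in CPM on log axes, with each point 1 locus, coloured by gene list, a solid line for equal levels and dashed lines for a change of 1.5-fold. Licensing, fork and mitosis loci lie mostly below the lines, and sterol, ER folding and autophagy loci lie mostly on or above them.

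The libraries carried the markers of an epithelial line. Of 12 epithelial markers 8 were compared, of which 3 were called higher and 4 lower. Their summed level was 6525 CPM in the control and 3535 CPM with SCS, of which the keratin KRT8 alone held 3433 and 1464 CPM. EPCAM, an epithelial adhesion protein, was the 1 not called, with 492 control fragments and 605 after SCS (log2 0.07). The colonic markers CDX1 and GPA33 had no fragment in either library, and CDX2 and CDH17, a caudal homeobox factor and an intestinal cadherin, were at or near 0. The fibroblast markers COL1A2, COL3A1, DCN and LUM and the leukocyte markers PTPRC, CD3E and CD14 had none. Of 4 endothelial markers 1 was compared, at 1.47 CPM in the control and 1.67 CPM with SCS. Summed fibroblast markers were 3.42 CPM in the control and 7.07 CPM with SCS. LYZ, a lysozyme listed among the leukocyte markers, had 603 and 352 fragments (log2 -1.0).

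Mitochondrial genome fragments were 35.8% of the control library (35.8 to 35.9) and 13.8% of the SCS library (13.8 to 13.9). The control therefore held 1061700 nuclear fragments and the SCS library 1383424, and the summed mitochondrial level changed by -1.65 on the log2 scale. In the NCM460 libraries the shares were 62.3% and 46.3%. The locus holding the ribosomal RNAs MT-RNR1 and MT-RNR2 with MT-ND1 and MT-ND2 fell from 536135 fragments to 180026 (log2 -1.81). The cytochrome b gene MT-CYB fell from 4172 to 2466 (log2 -0.99). The locus with the cytochrome oxidase subunits and ATP synthase subunits fell less, from 51263 to 38730 (log2 -0.64, -0.66 to -0.62), so the mitochondrial transcripts did not change in 1 proportion. These loci each hold several genes and cannot be split further.

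The MCM helicase genes were lower as a family. Of 26 loci for origin licensing and the helicase, none was called higher and 17 were called lower, with a median of -1.15 against 0.07 for all loci, and their summed level was 1000 CPM in the control and 340.4 CPM with SCS. The helicase genes MCM2 to MCM8 were called lower in 7 of 7 cases, with a median of -2.85. Of the helicase activators 7 of 9 were called lower, with a median of -2.27.

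MCM4 (chr8:47960185-47978160, GRCh38), a subunit of the replicative helicase, had 301 control fragments and 26 after SCS (147.1 and 10.8 CPM, log2 -3.62). MCM3 had 177 and 21 fragments (log2 -3.13), MCM5 had 106 and 14 (log2 -2.90), and MCM2 had 213 and 32 (log2 -2.85, -3.55 to -2.43). MCM6 had 88 and 22 fragments (log2 -2.09) and MCM7 had 350 and 198 (log2 -1.04). All subunits of the hexamer were therefore lower, with MCM7 changed least.

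The proteins that turn the loaded helicase on followed. CDC45, which joins the helicase at firing, fell from 69 to 8 fragments (log2 -2.93). MCM10, an initiation factor, fell from 44 to 7 (log2 -2.44), and GINS1 of the GINS complex fell from 47 to 9 (log2 -2.27). CDC7, the kinase that fires origins, had 21 control fragments and none after SCS. Against a floor of 3 fragments that was 8.22-fold lower, and the interval reached up to log2 -2.613. DBF4, the partner of CDC7, had 27 and 41 fragments (log2 0.34) and was not called.

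The loading factors stood apart from the helicase they load. CDC6 had 61 control fragments and 66 after SCS (log2 -0.11), and CDT1 had 53 and 48 (log2 -0.36), neither of which was called. GMNN, the CDT1 inhibitor geminin, fell from 22 to 10 fragments (log2 -1.15). Of the 6 origin recognition subunits, ORC1 fell from 31 to 8 fragments (log2 -1.84) and ORC6 fell from 60 to 35 (log2 -0.95), while ORC2 to ORC5 were not called.

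**Figure D3:**
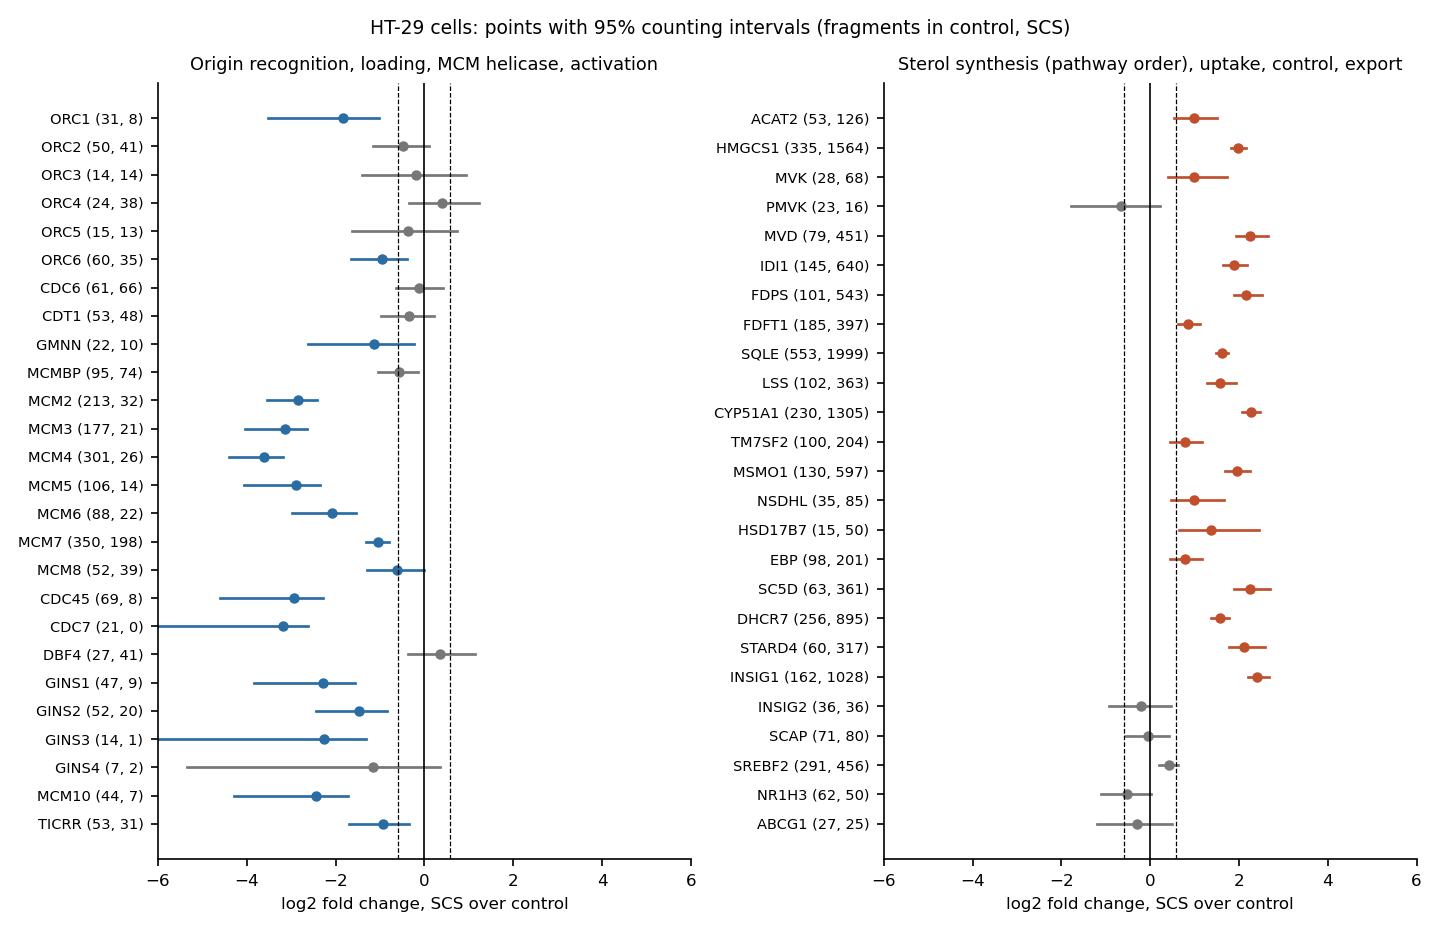
Log2 fold change of SCS over control for genes of origin licensing and of sterol synthesis and uptake, labelled with their fragments in control and SCS, with horizontal lines for the exact 95% counting interval, drawn to the edge of the axis where longer. The position of CDC7, with 0 fragments in the SCS library, depends on the prior count. The helicase genes lie to the left of 0, and the mevalonate enzymes drawn other than PMVK lie to the right.

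Promoter stretches show sequence letters shared by some members of these lists. They come from RefSeq (GRCh38.p14), from windows of 250 bases before to 50 bases after each gene's start, and were searched on both strands. The E2F motif was searched as TTTCCCGC or TTTGGCGC and the CCAAT box as CCAAT, and neither E2F sequence contains CCAAT or its complement. Of the 17 licensing loci called lower, promoters were found for 15, and 7 of them (46.7%) held an E2F motif. Of 8 promoters found for members of the list that were not called, 3 (37.5%) also held one. Of all 27195 promoters 2.32% held one. A match describes letters only and is neither a bound site nor a cause. The 3 helicase stretches below lie upstream of the start at chr6:52284883-52284942, chr2:135876500-135876559 and chr7:100101551-100101610, all on the minus strand, and capitals mark the motif.
MCM3: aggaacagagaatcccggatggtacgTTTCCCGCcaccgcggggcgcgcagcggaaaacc
MCM6: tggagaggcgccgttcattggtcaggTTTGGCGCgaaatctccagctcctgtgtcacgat
MCM7: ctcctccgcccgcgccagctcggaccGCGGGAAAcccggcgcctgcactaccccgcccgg

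At the replication fork 21 of 27 loci were called lower and 2 higher, with a median of -1.33. PCNA, the sliding clamp, fell from 216 fragments to 38 (log2 -2.65, -3.28 to -2.24). POLE, the catalytic subunit of the leading-strand polymerase, fell from 118 to 29 (log2 -2.14), and the primase partner POLA2 fell from 43 to 12 (log2 -1.83). RFC3 of the clamp loader fell from 50 to 15 (log2 -1.77). All 4 loci for ligation and Okazaki fragment processing were called lower, with a median of -2.03. FEN1, the flap endonuclease, shares its locus with FADS2 and its value is uncertain (157 and 26 fragments, log2 -2.69).

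The exceptions at the fork were RFC1 and POLD4. RFC1, the large subunit of the clamp loader, rose from 66 fragments to 129 (log2 0.71) while RFC2 to RFC5 all fell. POLD4, the small polymerase delta subunit, lies in a merged locus that rose from 60 to 152 (log2 1.08). Of the polymerase alpha genes, POLA1 was not called (29 and 26 fragments, log2 -0.35).

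Of 31 loci for nucleotide synthesis 18 were called lower and 4 higher. For deoxynucleotides 7 of 10 were called lower and 1 higher, with a median of -1.58. TYMS, thymidylate synthase, had 98 control fragments and 3 after SCS (log2 -4.29), a log2 ratio of -5.26 (-7.56 to -3.67) without the prior count. RRM2, the cell-cycle subunit of ribonucleotide reductase, fell from 365 to 27 (log2 -3.85, -4.61 to -3.42), and its partner RRM1 fell from 163 to 61 (log2 -1.60). The salvage kinase TK1 fell from 156 to 22 (log2 -2.90).

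RRM2B, the stress-induced alternative to RRM2, rose from 18 fragments to 65 (log2 1.49, 0.85 to 2.46). In the deposited FPKM values its rise was under 1.5-fold (log2 0.44). Of 5 one-carbon loci 2 were called higher and 2 lower. The mitochondrial enzymes MTHFD2 (243 and 642 fragments, log2 1.16) and SHMT2 (242 and 555, log2 0.96) rose. The cytosolic MTHFD1 fell from 121 to 43 (log2 -1.66), and the merged locus of cytosolic SHMT1 fell from 67 to 17 (log2 -2.03).

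Chromatin genes that act behind the fork were mostly lower. Of 20 loci 14 were called lower and none higher, with a median of -1.52. UHRF1, which brings DNMT1 to newly copied DNA, fell from 203 fragments to 9 (log2 -4.33), and the merged DNMT1 locus fell from 156 to 46 (log2 -1.93). The de novo methyltransferase DNMT3A was not called (41 and 56 fragments, log2 0.21). The merged locus of HELLS, a chromatin remodeller, fell from 159 to 12 (log2 -3.66).

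LMNB1, a nuclear lamina protein, fell from 258 fragments to 33 (log2 -3.09), more than LMNA, which fell from 1116 to 616 (log2 -1.09). The architectural protein HMGB1 fell from 599 to 234 (log2 -1.58). EZH2, the Polycomb methyltransferase, was not called (45 and 43 fragments, log2 -0.28).

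Of 34 regulators of G1 and S phase 21 were called lower and 4 higher, with a median of -1.04. All 7 kinase and phosphatase loci were called lower, among them CDK2 (67 and 16 fragments, log2 -2.10, -3.19 to -1.50) and CDK6 (154 and 84, log2 -1.08). CCND1, the D-type cyclin of G1 entry, fell from 178 to 65 (log2 -1.64, -2.12 to -1.27), and CCNE1 fell from 35 to 10 (log2 -1.76, -3.22 to -0.99). SKP2, which targets p27 for degradation, fell from 68 to 9 (log2 -2.78).

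The kinase inhibitors did not move as 1 group. CDKN1A, which encodes p21, rose from 25 fragments to 279 (log2 3.12, 2.66 to 3.90), and CDKN2B rose from 31 to 114 (log2 1.57, 1.06 to 2.27). CDKN2C was called lower with 13 fragments against 2. CDKN1B and CDKN2A were not called (log2 0.31 and 0.28).

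The E2F family divided as well. The activator E2F1 fell from 46 fragments to 7 (log2 -2.51). Of the atypical repressors, E2F8 fell from 28 to 3 and E2F7 rose from 34 to 80 (log2 0.95). Of the pocket proteins, RBL1 fell from 26 to 6 (log2 -1.89), RBL2 of the DREAM complex rose from 57 to 107 (log2 0.65), and RB1 was not called (112 and 143 fragments, log2 0.12).

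Mitosis genes were lower in 43 of 54 loci and higher in none, with a median of -1.26 and a summed level of 2601 CPM in the control and 1127 CPM with SCS. NCAPH of condensin fell from 53 fragments to 7 (log2 -2.70, -4.54 to -2.01), and SPC24 of the outer kinetochore fell from 40 to 5 (log2 -2.64). MKI67, the proliferation marker, fell from 523 to 143 (log2 -2.08). All 10 loci of the chromosome role were called lower, with a median of -1.71.

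The mitotic kinases AURKB (51 and 11 fragments, log2 -2.16) and PLK1 (121 and 41, log2 -1.72) fell more than AURKA (63 and 37, log2 -0.94). The spindle protein ASPM (66 and 83 fragments, log2 0.10), the kinetochore motor CENPE (22 and 25, log2 -0.04) and the checkpoint kinase BUB1 (53 and 47, log2 -0.38) were not called. The kinetochore role had the lowest share of lower calls among roles of 5 or more loci, 5 of 9.

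Of the 43 mitosis loci called lower, promoters were found for 36, and 27 of them (75%) held a CCAAT box, against 35.7% of all promoters. The box was also in 5 of 9 promoters (55.6%) found for mitosis members that were not called. An E2F motif was in 1 of the 36 promoters of loci called lower. The stretches below are shown because CCAAT recurred in these promoters and the E2F letters did not. They lie at chr2:96335627-96335686 on the plus strand, and at chr19:11155824-11155883 and chr17:8210346-8210405 on the minus strand, with CCAAT or its reverse complement in capitals.
NCAPH: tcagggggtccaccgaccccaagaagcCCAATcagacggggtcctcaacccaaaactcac
SPC24: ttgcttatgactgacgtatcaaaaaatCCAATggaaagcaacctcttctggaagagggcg
AURKB: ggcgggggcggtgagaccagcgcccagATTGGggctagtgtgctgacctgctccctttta

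DNA repair genes were lower in 23 of 46 loci and higher in 3, with a median of -0.89. All 6 Fanconi loci, which repair crosslinks, were called lower, with a median of -1.67, and FANCI fell from 143 fragments to 36 (log2 -2.13). CLSPN, a fork checkpoint adaptor, fell from 61 to 7 (log2 -2.89). UNG, which removes uracil from DNA, fell from 116 to 7 (log2 -3.79, -5.63 to -3.19).

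PARP1, a sensor of strand breaks, fell from 337 fragments to 68 (log2 -2.49), and PRKDC of end joining fell from 1082 to 430 (log2 -1.56). LIG4 rose from 25 to 49 (log2 0.68). The homologous recombination gene BRCA1 (48 and 50 fragments, log2 -0.16) and the checkpoint kinase ATM (117 and 206, log2 0.57) were not called.

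Cholesterol synthesis genes were higher in most steps. Of 29 loci for sterol synthesis and uptake, 22 were called higher and none lower, with a median of 1.56, and the summed level was 2137 CPM in the control and 6134 CPM with SCS. In the mevalonate branch 7 of 8 loci were called higher, with a median of 1.94, and from squalene to cholesterol 11 of 12 were, with a median of 1.46. Neither of the export loci was called.

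HMGCS1, the synthase that opens the HMG-CoA route, rose from 335 fragments to 1564 (log2 1.98). MVD rose from 79 to 451 (log2 2.24) and FDPS, which makes farnesyl diphosphate, rose from 101 to 543 (log2 2.17). Between these enzymes PMVK, phosphomevalonate kinase, was not called (23 and 16 fragments, log2 -0.66).

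SQLE, squalene epoxidase, rose from 553 fragments to 1999 (log2 1.62). SC5D rose from 63 to 361 (log2 2.24), and MSMO1 rose from 130 to 597 (log2 1.95). CYP51A1 shares its locus with LRRD1, which rose from 230 to 1305 (log2 2.26, 2.07 to 2.48). DHCR7, which makes the final reduction to cholesterol in 1 branch, rose from 256 to 895 (log2 1.56).

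The feedback gene INSIG1 (chr7:155297776-155310235), which holds the SREBP complex in the ER when sterols are ample, rose from 162 fragments to 1028 (79.2 and 427.8 CPM, log2 2.42, 2.19 to 2.68). STARD4, a sterol carrier, rose from 60 to 317 (log2 2.12). The SREBP machinery itself was not called: SREBF2 had 291 and 456 fragments (log2 0.41), SCAP had 71 and 80 (log2 -0.06), and INSIG2 had 36 in each library (log2 -0.22).

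Promoters were found for 16 of the 22 sterol genes called higher, and 14 (87.5%) held a CCAAT box. The box was in 1 of 5 promoters (20%) found for members not called and in 35.7% of all promoters. The sterol response element, searched as TCACNCCAC, was in none of the 16 and in 1.15% of all promoters; its absence says only that these letters are not in this window. The stretches below are shown for INSIG1, MVD and SC5D, and lie at chr7:155297681-155297740 and chr11:121292688-121292747 on the plus strand for INSIG1 and SC5D and at chr16:88663144-88663203 on the minus strand for MVD.
INSIG1: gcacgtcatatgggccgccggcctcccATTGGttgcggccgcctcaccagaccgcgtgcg
MVD: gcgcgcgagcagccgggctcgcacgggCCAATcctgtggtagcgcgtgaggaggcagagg
SC5D: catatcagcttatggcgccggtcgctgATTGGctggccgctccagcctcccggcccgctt

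Fatty acid genes rose less uniformly, with 13 of 25 loci called higher, 2 lower and a median of 0.61. ACSS2, which makes acetyl-CoA from acetate, rose from 122 fragments to 682 (log2 2.23, 1.97 to 2.54). FASN, fatty acid synthase, rose from 1345 to 2867 (log2 0.86), and SCD, the stearoyl desaturase, rose from 3270 to 8464 (1598 and 3522 CPM, log2 1.14, 1.08 to 1.2). Of the steps that feed FASN, ATP-citrate lyase ACLY was not called (450 and 634 fragments, log2 0.26), nor was acetyl-CoA carboxylase ACACA.

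Further members that rose handle activated fatty acids and glycerolipids. LPIN1, a phosphatidate phosphatase, rose from 35 fragments to 164 (log2 1.92), and ACSL1, an acyl-CoA synthetase, rose from 66 to 246 (log2 1.63). DGAT2, of triglyceride synthesis, was called lower with 13 fragments against 3, and SREBF1 was not called (115 and 181, log2 0.41).

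ER folding genes were called higher in 26 of 30 loci and lower in none, with a median of 0.97 and a summed level of 4344 CPM in the control and 9749 CPM with SCS. All 7 translocon loci and all 4 for ER-associated degradation were called higher. So were all 3 loci listed as sensors, which were ERN1, its target XBP1, and ATF6. PERK was counted in the ATF4 list instead. HSPA5 (chr9:125234853-125241330), the ER chaperone BiP, rose from 855 fragments to 4829 (417.9 and 2010 CPM, log2 2.26, 2.16 to 2.37). HYOU1, its ER partner, rose from 511 to 2330 (log2 1.95, 1.82 to 2.10), and DNAJB9 rose from 30 to 230 (log2 2.61, 2.15 to 3.31).

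ERN1, which encodes IRE1, rose from 30 fragments to 309 (log2 3.03, 2.59 to 3.73). Its target XBP1 rose from 319 to 860 (log2 1.19) and ATF6 rose from 106 to 258 (log2 1.03). HERPUD1 of ER-associated degradation rose from 125 to 489 (log2 1.72). CALR, calreticulin, was not called (899 and 1054 fragments) while its partner CANX rose from 907 to 1932 (log2 0.86).

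Chaperones outside the ER did not rise with it. Of 26 cytosolic and mitochondrial chaperone loci 1 was called higher and 8 lower, with a median of -0.37, and none of 8 HSP70 and HSP40 loci was called. The heat-inducible HSPA1B had 230 and 253 fragments (log2 -0.09) and DNAJB1 had 163 and 161 (log2 -0.25). HSPA9, the mitochondrial HSP70, rose from 459 to 885 (log2 0.71). The cytosolic chaperonin subunit CCT7 fell from 478 to 280 (log2 -1.0).

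Of the 26 ER folding genes called higher all had a promoter in the table, and 21 (80.8%) held a CCAAT box. The box was also in 2 of 3 promoters (66.7%) found for members not called, and in 35.7% of all promoters. The stretches below are shown for the sensor and chaperones that changed most, at chr17:64130205-64130264 (ERN1) and chr9:125241377-125241436 (HSPA5) on the minus strand and chr7:108569814-108569873 (DNAJB9) on the plus strand.
ERN1: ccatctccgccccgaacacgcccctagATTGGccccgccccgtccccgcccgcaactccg
DNAJB9: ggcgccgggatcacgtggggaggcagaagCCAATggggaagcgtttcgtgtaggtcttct
HSPA5: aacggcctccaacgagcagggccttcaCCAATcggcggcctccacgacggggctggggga

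The ATF4 and integrated stress response list had 24 of 35 loci called higher and 2 lower, with a median of 0.97. ATF4 itself rose from 387 fragments to 703 (log2 0.63). DDIT3, which encodes CHOP, rose from 22 to 195 (log2 2.78), and EIF2AK3, which encodes the ER kinase PERK, rose from 37 to 129 (log2 1.51). NUPR1, a stress-induced chromatin protein, had no control fragment and 49 after SCS. Against the floor of 3 fragments that was 13.9-fold higher, and the interval reached down to log2 3.445. ATF3 was not called (158 and 205, log2 0.14), and the merged locus of ATF5 fell from 77 to 20 (log2 -2.02).

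All 8 compared stress effectors were called higher, with a median of 2.13. SESN2, an inhibitor of mTORC1, rose from 28 fragments to 188 (log2 2.41), TRIB3, a pseudokinase, rose from 179 to 893 (log2 2.07), and CHAC1, which degrades glutathione, rose from 13 to 80 (log2 2.18). Amino acid synthesis genes were mixed, with 4 of 9 called higher: ASNS, asparagine synthetase, rose from 141 to 455 (log2 1.44), PSAT1 of the serine route was not called (162 and 215, log2 0.17), and PHGDH, which opens that route, fell from 90 to 60 (log2 -0.79).

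The ATF4 composite element, searched as TGATGNAA, was in 3 of 21 promoters (14.3%) found for the 24 genes called higher, against 3.67% of all promoters. It was also in 2 of the 6 promoters (33.3%) found for members that were not called and in neither found for those called lower. CHAC1 and ASNS are shown because both changed and held the letters. Their stretches lie at chr15:40953236-40953295 on the plus strand and chr7:97872443-97872502 on the minus strand.
CHAC1: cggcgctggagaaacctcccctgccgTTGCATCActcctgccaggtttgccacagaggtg
ASNS: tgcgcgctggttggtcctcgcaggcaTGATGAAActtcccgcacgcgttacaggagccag

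Aminoacyl-tRNA synthetases, which charge tRNAs, were counted by compartment, and the difference between compartments was not tested. Of 23 cytosolic loci 10 were called higher and 1 lower, with a median of 0.50, whereas of 17 mitochondrial loci none was called higher and 4 were called lower, with a median of -0.47. WARS rose from 159 fragments to 548 (log2 1.54), GARS from 224 to 632 (log2 1.25) and AARS from 278 to 764 (log2 1.22). The mitochondrial LARS2 fell from 36 to 14 (log2 -1.41).

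Amino acid transporters were called higher in 9 of 20 loci and lower in 3, with a median of 0.55. SLC7A11, the cystine importer, rose from 159 fragments to 1007 (log2 2.41, 2.19 to 2.68), and its heavy chain SLC3A2 rose from 227 to 765 (log2 1.51). SLC7A6, another light chain, fell from 69 to 30 (log2 -1.35), and the glutamine transporter SLC1A5 was not called (816 and 971, log2 0.02).

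NRF2 targets and glutathione genes were called higher in 21 of 39 loci and lower in 3, with a median of 0.79 and a summed level of 9373 CPM in the control and 22870 CPM with SCS. Most of that sum is ferritin. The glutathione ligase subunit GCLM rose from 51 fragments to 205 (log2 1.73), and the merged locus of its partner GCLC rose from 165 to 916 (log2 2.22). TXNRD1, thioredoxin reductase, rose from 782 to 2770 (log2 1.59, 1.48 to 1.71). AKR1C1 and AKR1C3, near-identical aldo-keto reductases, shared 1 locus that rose from 159 to 1128 (log2 2.58, 2.35 to 2.84).

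Within the list some targets did not follow. NQO1, a quinone reductase widely used as an NRF2 readout, was not called (576 and 667 fragments, log2 -0.02). GSR, glutathione reductase, was not called (78 and 114, log2 0.31), and the glutathione peroxidase GPX2 fell from 383 to 181 (log2 -1.30). Of 6 NADPH-producing loci 5 were called higher, among them IDH1 (169 and 799, log2 1.99) and PGD (288 and 703, log2 1.05). The antioxidant response element core, searched as TGACNNNGC, was in 4 of the 18 promoters found for list members called higher (22.2%), in both found for members called lower, in 1 of 10 (10%) found for members not called, and in 13.6% of all promoters.

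Of 12 iron handling loci 3 were called higher (25%) and 2 lower (16.7%), near the shares over all loci, with a median of 0.10. FTH1, the ferritin heavy chain, rose from 6481 fragments to 21320 (3168 and 8872 CPM, log2 1.49, 1.45 to 1.53), and the light chain FTL rose from 4375 to 15243 (2138 and 6343 CPM, log2 1.57, 1.52 to 1.62). TFRC, the transferrin receptor, fell from 953 to 536 (log2 -1.06, -1.22 to -0.91), and SLC40A1, the iron exporter ferroportin, fell from 93 to 50 (log2 -1.08, -1.65 to -0.62). HMOX1, heme oxygenase, rose from 8 to 38 (log2 1.72, 0.89 to 3.33). NCOA4, which carries ferritin to the lysosome, was not called (137 and 227, log2 0.49).

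Autophagy genes were called higher in 18 of 33 loci and lower in none, with a median of 0.72. WIPI1, which binds the forming membrane, rose from 18 fragments to 173 (log2 2.86, 2.33 to 3.82), the ATG8 protein GABARAPL1 rose from 22 to 177 (log2 2.64, 2.13 to 3.49), and the initiating kinase ULK1 rose from 34 to 228 (log2 2.43). The cargo receptor SQSTM1, also an NRF2 target, rose from 561 to 2307 (log2 1.80). BECN1 (68 and 89, log2 0.15) and the conjugation enzyme ATG7 (20 and 15, log2 -0.56) were not called.

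Of 51 lysosomal loci 16 were called higher and 4 lower, with a median of 0.30. The cholesterol exporter NPC1 rose from 97 fragments to 408 (log2 1.81, 1.52 to 2.17), and TPP1, a peptidase, rose from 121 to 359 (log2 1.32). Of 10 lysosomal protease loci 3 were called higher and 3 lower. Among the cathepsins, CTSL rose from 5 to 44 (log2 2.40), while CTSC fell from 166 to 68 (log2 -1.48) and CTSH from 177 to 78 (log2 -1.38).

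**Figure D4:**
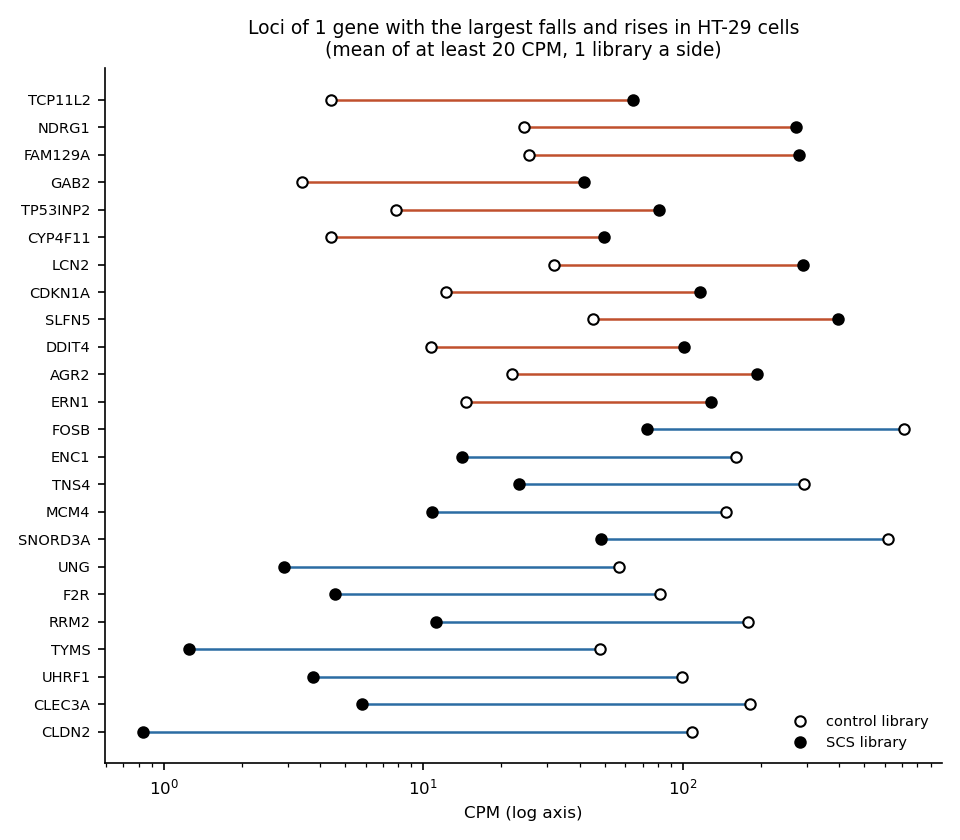
The loci of 1 gene with the largest called changes at a mean of at least 20 CPM, ordered by log2 fold change, with the level in CPM on a log x axis as an open circle for the control library and a filled circle for the SCS library, joined by a line. CLDN2 dropped from 108.5 CPM to 0.83 CPM, and each of the other falls and rises shown also spans several-fold.

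The 12 largest rises in log2 fold change among loci of 1 gene at a mean of at least 20 CPM came from several of these groups. TCP11L2 rose from 9 fragments to 154 (log2 3.53, 2.90 to 5.02). NDRG1, a gene induced by hypoxia and differentiation, rose from 50 to 656 (log2 3.42, 3.07 to 3.93). FAM129A, a stress-induced translation regulator, rose from 52 to 671 (log2 3.39, 3.05 to 3.89).

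GAB2, an adaptor for growth factor receptors, rose from 7 fragments to 100 (log2 3.19, 2.51 to 4.96). TP53INP2, which acts in autophagy, rose from 16 to 195 (log2 3.18, 2.64 to 4.21). SLFN5, of the Schlafen family, rose from 92 to 954 (log2 3.11, 2.83 to 3.47). The secreted LCN2, a siderophore-binding protein of the NF-kappaB list, rose from 65 to 694 (log2 3.13, 2.82 to 3.57), and AGR2, an ER isomerase of mucus-secreting cells, rose from 45 to 462 (log2 3.06, 2.68 to 3.60). The others were CDKN1A and ERN1 above, DDIT4, an mTORC1 inhibitor that rose from 22 to 242 (log2 3.08), and CYP4F11, a fatty acid hydroxylase that rose from 9 to 119 (log2 3.16, 2.52 to 4.66).

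The largest fall by the same rule was CLDN2 (chrX:106900164-106930861), a pore-forming claudin, with 222 control fragments and 2 after SCS (108.5 and 0.83 CPM, log2 -5.71). Without the prior count its log2 ratio was -7.03 (-10.08 to -5.16). TNS4, a focal adhesion protein, fell from 599 to 56 (log2 -3.58, -4.07 to -3.25). ENC1, an actin-binding protein, fell from 328 to 34 (log2 -3.39, -4.06 to -2.99). The small nucleolar RNA SNORD3A, which acts in ribosomal RNA processing, fell from 1260 to 116 (log2 -3.64, -3.96 to -3.40). TYMS, UHRF1, RRM2, UNG and MCM4, described above, and FOSB were also among the 12 largest falls among loci of 1 gene, with CLEC3A, a cartilage-linked lectin (372 and 14 fragments, log2 -4.69), and F2R, the thrombin receptor (167 and 11, log2 -3.83).

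By level rather than ratio, the largest fall among nuclear loci of 1 gene was KRT8, an epithelial keratin, from 3433 CPM to 1464 CPM (7024 and 3518 fragments, log2 -1.23, -1.29 to -1.17). PKM, pyruvate kinase, fell from 3248 fragments to 1130 (log2 -1.75, -1.85 to -1.66), and TGM2, a transglutaminase, fell from 1669 to 477 (log2 -2.03, -2.19 to -1.89). The immediate early factor FOSB fell from 1453 to 175 (log2 -3.26, -3.52 to -3.06).

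FOSB belongs to a list of 31 loci of AP-1 and MAP kinase feedback, with a median of -0.34. Of these loci 10 were called lower (32.3%) and 4 higher (12.9%), against 14.8% and 16.8% over all loci. Of the 8 AP-1 loci in the list 2 were called lower and 1 higher. Of its 8 other immediate early loci 3 were called lower and 1 higher. FOS fell from 575 fragments to 97 (log2 -2.76, -3.12 to -2.49) and EGR1 fell from 677 to 149 (log2 -2.39). JUND rose from 114 to 241 (log2 0.83), and the phosphatase DUSP5 rose from 124 to 340 (log2 1.21).

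Growth factor receptors and ligands had 13 of 31 loci called lower (41.9%) and 4 higher (12.9%), against 14.8% and 16.8% over all loci. The median of the list was -0.45. All 4 higher calls were among the 9 ligands, of which 3 were called lower, and the ligand median was -0.40. EGFR fell from 432 fragments to 329 (log2 -0.62) and ERBB2 from 193 to 142 (log2 -0.66). The EGFR ligands AREG (235 and 793, log2 1.51, 1.31 to 1.74) and EREG (371 and 771, log2 0.82) rose, while HBEGF, which also binds EGFR, fell from 51 to 26 (log2 -1.12). PDGFC, a platelet-derived growth factor, fell from 65 to 10 (log2 -2.60). FGFR3 had 28 control fragments and 2 after SCS (log2 -2.83), a log2 ratio of -4.04 (-7.15 to -2.05) without the prior count.

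Glycolysis and hypoxia-linked genes were counted apart. Of 17 glycolytic loci 9 were called lower and none higher, with a median of -0.71. LDHA, lactate dehydrogenase, fell from 761 fragments to 200 (log2 -2.14, -2.39 to -1.93), and ENO1, enolase, fell from 1673 to 723 (log2 -1.44). Of 16 hypoxia-linked loci 5 were called higher and 2 lower. VEGFA, the vascular growth factor, rose from 198 to 856 (log2 1.87), and CA9, a carbonic anhydrase, fell from 24 to 6 (log2 -1.79).

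Nuclear-encoded mitochondrial genes were called lower more often than higher. Of 77 respiratory chain loci 25 were called lower and 2 higher, with a median of -0.39, and of 76 mitochondrial ribosome loci 27 were called lower and 1 higher, with a median of -0.43. SDHA of complex II fell from 265 fragments to 139 (log2 -1.15), and the mitochondrial transcription factor TFAM fell from 76 to 46 (log2 -0.91). The electron carrier CYCS rose from 134 to 244 (log2 0.62), but by less than 1.5-fold in the deposited FPKM values (log2 0.23). These values stand beside the lower share of mitochondrial genome fragments, and their relation was not tested.

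Cytosolic ribosomal proteins stayed near the centre, with 3 of 79 loci called higher and 1 lower. Their median was 0.14 and turned negative when nuclear fragments or FPKM set the scale. Ribosome biogenesis genes had 20 of 42 called lower and 1 higher and a median of -0.54. MRTO4, an assembly factor, fell from 131 fragments to 39 (log2 -1.90), UBTF, the polymerase I factor, fell from 165 to 51 (log2 -1.86), and MYC fell from 278 to 197 (log2 -0.72).

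RNA handling genes were likewise called lower more often than higher. Of 45 splicing loci 25 were called lower and 3 higher, with a median of -0.65, and SNRPF of the Sm ring fell from 67 fragments to 24 (log2 -1.60). CLK1, a kinase of splicing factors, rose from 25 to 99 (log2 1.66). Of 45 nuclear pore and transport loci 21 were called lower and 5 higher, with a median of -0.52. XPOT, which exports tRNA, rose from 285 to 716 (log2 1.09), whereas the pore protein NUP210 fell from 237 to 111 (log2 -1.30).

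Interferon-stimulated genes were called higher in 17 of 29 loci and lower in 1, with a median of 1.07. OAS1, an RNA sensor, rose from 33 fragments to 157 (log2 1.94), IFIT1 from 6 to 42 (log2 2.16, 1.33 to 4.10) and MX1 from 12 to 56 (log2 1.78). DDX58, which encodes RIG-I, had 3 control fragments and 42 after SCS (log2 2.78), a log2 ratio of 3.58 (1.93 to 5.91) without the prior count. IFITM1 and IFITM2 shared 1 locus that fell from 69 to 19 (log2 -1.93, -2.91 to -1.34). The control counts of most of these genes are low, so their intervals are wide.

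Class I antigen presentation had 7 of 12 loci called higher and none lower, with a median of 0.65. Its transactivator NLRC5 rose from 6 fragments to 73 (log2 2.91, 2.18 to 4.87), and the peptide transporter TAP1 rose from 13 to 59 (log2 1.76). B2M, the invariant light chain, was not called (501 and 738, log2 0.33).

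Apoptosis genes had 9 of 38 loci called higher (23.7%) and 4 lower (10.5%), against 16.8% and 14.8% over all loci, with a median of 0.11. The BH3-only genes divided: BMF rose from 13 fragments to 80 (log2 2.18, 1.53 to 3.36), PMAIP1 rose from 13 to 66 (log2 1.92, 1.24 to 3.10), BAD fell from 19 to 6 (log2 -1.49, -3.51 to -0.51) and BID fell from 63 to 21 (log2 -1.68). None of the 3 BAX and BAK family loci was called, and BAX had 78 fragments in each library. TNFRSF10B, the TRAIL receptor DR5, rose from 73 to 315 (log2 1.84), and CASP4, an inflammatory caspase, rose from 53 to 189 (log2 1.56).

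Epithelial genes changed in both directions. Of 16 tight junction loci 5 were called higher (31.25%) and 2 lower (12.5%), against 16.8% and 14.8% over all loci. OCLN, occludin, rose from 58 fragments to 157 (log2 1.17) while CLDN2 fell. KRT19 fell from 720 to 375 (log2 -1.17), and KRT20, a keratin of differentiated enterocytes, rose from 119 to 306 (log2 1.11). In the deposited FPKM values KRT20 rose less than 1.5-fold (log2 0.30). VIL1, the brush border protein villin, fell from 138 to 24 (log2 -2.61, -3.45 to -2.12), whereas the intestinal galectin LGALS4 rose from 138 to 464 (log2 1.5). The cadherin CDH1 rose from 267 to 526 (log2 0.74), with the splicing regulator ESRP1 (174 and 450, log2 1.13).

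Of 17 ion transport loci 10 were called lower and 2 higher, with a median of -0.85. All 3 sodium pump loci were called lower, and of 14 channels and transporters 7 were called lower and 2 higher. SLC12A2, the basolateral chloride importer, fell from 319 fragments to 47 (log2 -2.92, -3.47 to -2.55), ANO1, a calcium-gated chloride channel, fell from 353 to 108 (log2 -1.91), and the sodium pump subunit ATP1B1 fell from 396 to 178 (log2 -1.37). CFTR was called lower with 23 fragments against 1. CLCN3, an intracellular exchanger, rose from 119 to 367 (log2 1.37).

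Secreted and surface epithelial proteins were mixed as well. Of 9 mucin and trefoil loci 3 were called higher and 2 lower, and the membrane mucin MUC13 fell from 37 fragments to 16. CEACAM5 and CEACAM6, adhesion proteins of colonic tumours, shared 1 locus that rose from 10 to 95 (log2 2.73). The endoderm factor FOXA2 rose from 4 to 24. Of 24 intestinal differentiation loci 5 were called higher (20.8%) and 7 lower (29.2%), with a median of -0.11. Of 11 keratin loci 2 were called higher (18.2%) and 4 lower (36.4%), with a median of -0.29. Over all loci the shares were 16.8% and 14.8%.

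Adhesion and matrix genes had 12 of 40 loci called lower (30%) and 6 higher (15%), against 14.8% and 16.8% over all loci, with a median of -0.18. The integrin chain ITGA2, a collagen receptor, fell from 305 fragments to 127 (log2 -1.47), and ITGB8 fell from 29 to 7 (log2 -1.89). The merged locus of LAMB3, a laminin chain, rose from 160 to 442 (log2 1.22). Of 18 S100 and annexin loci 8 were called lower and 2 higher, with a median of -0.46: S100A4 fell from 57 to 16 (log2 -1.88) and S100P rose from 220 to 645 (log2 1.31).

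The NF-kappaB and chemokine list had 6 of 19 loci called higher and 1 lower, with a median of 0.43. RELB of the noncanonical arm rose from 20 fragments to 92 (log2 1.84, 1.26 to 2.75), whereas NFKB1 of the canonical arm fell from 67 to 47 (log2 -0.71). NFKBIA, the inhibitor that canonical signalling induces, was not called (51 and 70, log2 0.21).

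Xenobiotic response genes had 8 of 24 loci called lower and 2 higher, with a median of -0.19. ALDH1A1, a retinal dehydrogenase, fell from 284 fragments to 54 (log2 -2.56). The UGT1A glucuronosyltransferases share exons and formed 1 locus that fell from 418 to 112 (log2 -2.10, -2.45 to -1.83).

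Of 33 loci for peroxisomes and fatty acid oxidation 10 were called lower (30.3%) and 6 higher (18.2%), with a median of -0.20. Over all loci the shares were 14.8% and 16.8%. Catalase, CAT in the table, was among those lower, and HADH of mitochondrial oxidation fell from 42 fragments to 15. HADHB of the trifunctional protein rose from 21 to 90 (log2 1.75). The citric acid cycle list had 9 of 30 loci called lower and 3 higher, with a median of -0.26 that turned to 0.0049 on the scale of total fragments, and MPC1, a pyruvate carrier subunit, rose from 17 to 62. The 43 proteasome loci stayed near the centre, with 3 called higher, 4 lower and a median of -0.06. Translation factors had 6 of 44 called higher (13.6%) and 7 lower (15.9%), near the shares over all loci. Among them EIF1 rose from 433 to 1240 (log2 1.28) while EIF5A fell from 541 to 325 (log2 -0.96).

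In the WNT list 8 of 22 loci were called lower and none higher, with a median of -0.39, and SOX9 fell from 238 fragments to 98 (log2 -1.48). Of 13 loci for tubulins and their regulators 7 were called lower and 1, the merged TUBB3 locus (105 and 191 fragments, log2 0.62), higher, and TUBA1B fell from 484 to 140 (log2 -2.0). The BMP and TGF-beta list was mixed, with 5 of 23 loci called higher (21.7%) and 6 lower (26.1%) and a median of -0.11. BMP4 fell from 357 to 124 (log2 -1.73), and TGIF1, a repressor of SMAD signalling, rose from 88 to 310 (log2 1.56).

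Of 50 glycosaminoglycan and proteoglycan loci, which build, carry or degrade chondroitin sulfate and related chains, 11 were called lower (22%) and 4 higher (8%), with a median of -0.10. Of 8 chondroitin synthesis loci 2 were called higher and 2 lower, and none of 9 heparan sulfate synthesis loci was called. Of 11 core protein loci 5 were called lower and 1 higher, and their summed level was 1591 CPM in the control and 1067 CPM with SCS. CHPF, which extends the chondroitin chain, rose from 79 fragments to 218 (log2 1.21), and the heparan sulfate carrier GPC1 rose from 38 to 89 (log2 0.95). CD44, the hyaluronan receptor, fell from 593 to 308 (log2 -1.17), the syndecan SDC1 fell from 310 to 183 (log2 -0.98), and HSPG2, perlecan, fell from 696 to 309 (log2 -1.40, -1.60 to -1.21).

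**Figure D5:**
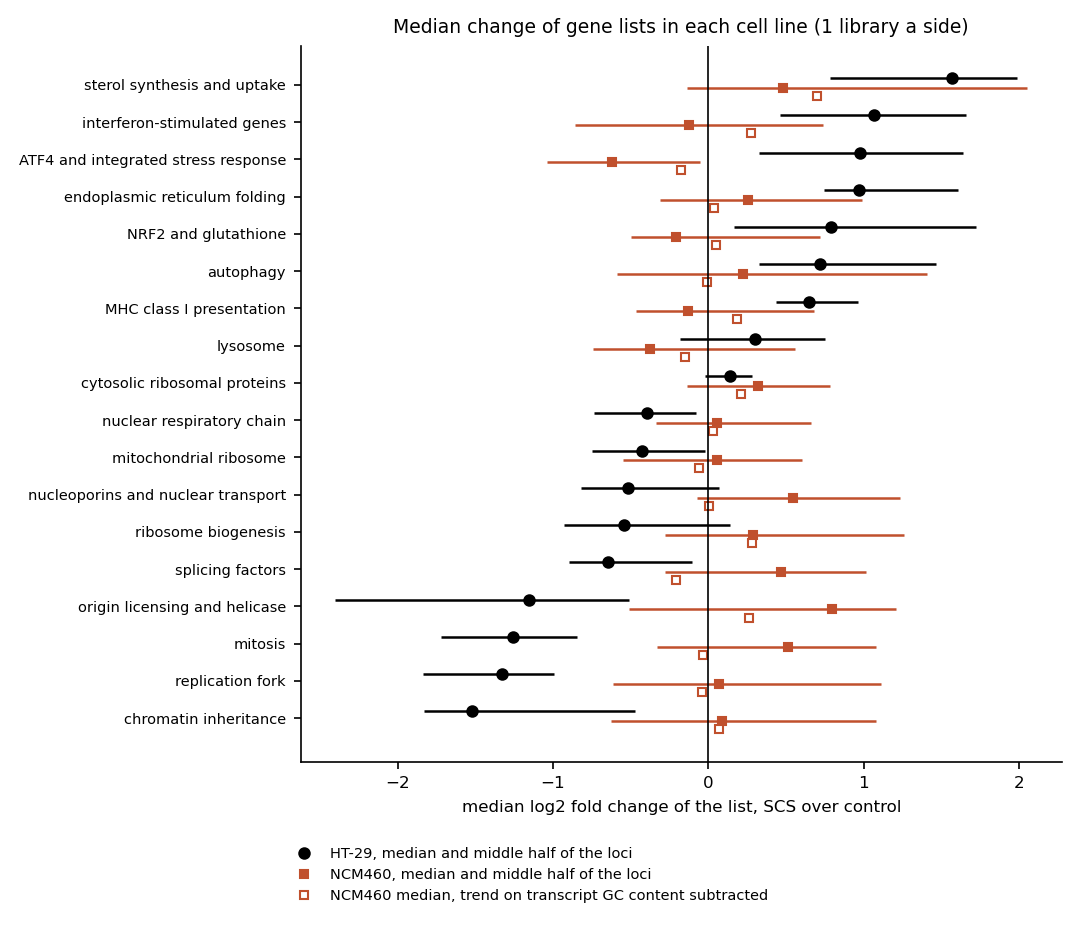
Median log2 fold change of each gene list in HT-29 cells and in NCM460 cells, with bars for the middle part of its loci (25th to 75th percentile), and hollow squares for the NCM460 median after a trend with GC content was subtracted. Mitosis lies at -1.26 in HT-29 cells and 0.51 in NCM460 cells, where it lies at -0.03 after the subtraction.

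The direction of several lists differed from NCM460 cells, where transcripts of higher GC content had lower log2 fold changes. Across loci, Spearman's rho of the log2 fold change with GC content was -0.15 in HT-29 cells (9294 loci) and -0.75 in NCM460 cells (6997 loci); loci share their libraries and are not replicates. The licensing and helicase median was -1.15 in HT-29 cells and 0.80 in NCM460 cells, or 0.26 there after the GC trend was subtracted. In HT-29 cells the same subtraction left it at -1.19. Other lists had medians of the same sign in both lines. The sterol median was 1.56 in HT-29 cells and 0.48 in NCM460 cells (0.70 there after the subtraction). The median of glycolytic loci was -0.71 and -1.02 (-0.72), and that of tubulins and their regulators was -0.62 and -0.66 (-0.50). The difference between the lines was not tested, since each comparison had 1 library a side, and the part of GC content in the NCM460 values was not tested.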

How the data were processed

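RNA of HT-29 control and HT-29 SCS cells was sequenced with a NEBNext Ultra kit on an Illumina instrument. The submitters' processing notes name bcl2fastq 2.17.1.14, cutadapt 1.9.1, Bowtie2, HTSeq 0.6.1 and the build hg19, and the study's methods name Cuffdiff. The table's coordinates are those of GRCh38 (93.4% of the gene IDs found in GENCODE 29 had the same coordinates). The strand setting of the counting is not given in the sources used here, so a gene and its antisense partner cannot be told apart.

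The deposited count column is a signal, fragments divided by a size factor by the authors, and 99.8% of its values gave whole fragments (tolerance 0.02). FPKM, also deposited by the authors, served as a check with a pseudocount of 1. Adjacent genes with identical values were merged into 18650 loci, 1812 of them of several genes. The 26 rows without a gene name, 0.0942% and 0.0928% of HT-29 fragments, were left out.

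TMM factors (edgeR 4.0.16, R 4.3.3) came from all 4 libraries. CPM, log2 fold changes with a prior count of 2 and exact Clopper-Pearson intervals were computed in Python 3.11.15 (pandas 2.3.3, scipy 1.17.1) and figures in matplotlib 3.10.9. The scripts were tested on simulated data. With 1 library a side, the count tests of edgeR and DESeq2 1.42.0 were not possible, and no paired test was made. Depth limits precision: 3 fragments, the floor used for a locus at 0, were 1.47 CPM in the control and 1.25 CPM with SCS.

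The rule for named genes took the 12 largest rises and falls above a mean level of 20 CPM, the 6 largest rises and falls in CPM, for each list the 2 highest and 2 lowest called members with 5 CPM or more on average, genes the study measured by other means, mitochondrial genes, and further members that account for a family. Some genes and lists are not reported here. The members and the 56 lists (1776 genes) were chosen with earlier results of these data known. Alternatives were other scalings (TMM of the HT-29 pair, DESeq2 size factors, total fragments, nuclear fragments), a prior count of 0.5, no filter, a filter of 5 CPM, loci of 1 gene, a GC trend subtracted, and FPKM.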

Additional observations from a re-analysis of the deposited data

Results flagged for a closer look

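For 4 lists the median changed one way in HT-29 cells and the other way in NCM460 cells, with the order-statistic interval over loci away from 0 in both lines. Loci are not replicates, each line had 1 library a side, and the difference was not tested. The mitosis median was -1.26 in HT-29 cells and 0.51 in NCM460 cells, where it was -0.03 after the GC trend was subtracted. The ATF4 list was at 0.97 and -0.62, with -0.18 in NCM460 cells after the subtraction. Splicing factors were at -0.65 and 0.47, with -0.21 after the subtraction, which is the HT-29 direction. Nucleoporins and nuclear transport were at -0.52 and 0.54, with 0.00 after the subtraction.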

How the results depend on the processing

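Scaling and the GC trend set the balance of calls. TMM of the HT-29 pair gave 1762 loci higher and 2004 lower (46.8% of calls higher, against 53.1%). With the GC trend subtracted, 1779 were higher and 1917 lower (48.1% higher). Total fragments gave 3148 loci higher and 1116 lower (73.8% of calls higher, against 53.1%) and moved the median of all loci to 0.32, nuclear fragments moved it to -0.07 (39.5% higher), and FPKM gave 3100 lower (40.6% higher) with a median of -0.10. The ribosomal protein median turned to -0.010 with nuclear fragments and -0.075 with FPKM, the citric acid cycle median turned from -0.26 to 0.0049 with total fragments, and the merged locus of ANKRD12, NDUFV2 and RP11-21J18.1 turned to -0.57 with FPKM. Of the 3839 called loci, 78.7% to 100% kept their call in the same direction across the alternatives run that use another scale, prior count or GC trend; an opposite sign appeared with FPKM alone, for 84 loci. No paired analysis was possible because there was 1 library per group, and no replicate could be left out.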

Other observations

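Noncoding RNA took a larger share with SCS, a pattern chosen after its values were seen. Loci typed as small noncoding RNA held 6.30% of the control fragments and 11.8% of the SCS fragments (log2 0.62). Of nuclear fragments alone they held 9.82% and 13.6%. The class as typed includes MALAT1, a long nuclear retained RNA, so its rise is not one of small RNAs alone. MALAT1 is listed at 2 loci, with 8348 and 35636 fragments (log2 1.86) at one and 1510 and 6361 (log2 1.84) at the other. Long noncoding loci summed to 15413 fragments in the control and 23716 with SCS (log2 0.39), and protein-coding loci changed by 0.08 on the same scale. Histone loci, most of whose transcripts lack a poly(A) tail and whose copies share reads, summed to 7561 and 4770 fragments (log2 -0.90).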
